A study of Mus musculus with 16 samples.

Results

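The amino acid transporter genes of the Slc7 family measured here were Slc7a1, Slc7a2, Slc7a3, Slc7a5, Slc7a6, Slc7a7, Slc7a8 and Slc7a11, together with Slc3a2, the gene of the heavy subunit that several of them share. These 9 genes, of 26219 listed, were taken by symbol from both expression tables. The set was chosen by the measured values of 1 gene, since Slc7a3 is higher in libraries labelled as Prdm1 conditional knockouts (CKO) and nearly lost in female germ cells at E13.5 (E, embryonic day). Those Slc7a3 values are therefore given as a description, with no test. The other 8 genes belong to the set by family, and the rule names no value of theirs.

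Expression was measured by 3′ RNA sequencing of primordial germ cells, the embryonic precursors of eggs and sperm, in 16 mouse libraries. The study's title concerns PRDM1 (BLIMP1), a transcriptional repressor that primordial germ cells need for their specification, and its role later in their development. The CKO-labelled group (4 libraries) was Prdm1(flox/flox) with a Rosa26(neo-EYFP/+) reporter and the Dppa3-MCMP(Tg/0) transgene, in which the Dppa3 promoter drives a tamoxifen-inducible Cre recombinase. The control group (4 libraries) had the same floxed alleles and reporter without that transgene. Both groups were C57BL/6 embryos of E11.5, and the mothers of both were injected with 4-OHT, an active tamoxifen, at E10.5, at 3 mg for each 25 g of body weight. A Dppa3(EGFP/+) wild-type set from crosses of ICR and C57BL/6 in equal parts gave 2 libraries at E10.5, 2 at E11.5, 2 from E13.5 females and 2 from E13.5 males. The protocols describe an EYFP sort and a sort with an antibody to SSEA-1 without saying which group had which, so an effect of the sort and of the genotype cannot be told apart. Nor do they name the embryos behind each replicate, and p-values then measure only the spread between these libraries.

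The SLC7 proteins move amino acids across the plasma membrane and fall into a pair of branches. The cationic amino acid transporters SLC7A1, SLC7A2 and SLC7A3 work alone and carry arginine, lysine and ornithine. SLC7A5, SLC7A6, SLC7A7, SLC7A8 and SLC7A11 are light subunits that reach the cell surface bound to SLC3A2 (CD98 heavy chain) and exchange one amino acid for another. Transcription of several of these genes is raised by ATF4, the factor of the amino acid stress response. Primordial germ cells divide in the early gonad, then enter meiosis in the ovary and mitotic arrest in the testis.

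Levels are in RPM, gene-assigned reads scaled to the same total in every library, which are not divided by gene length, so levels were compared between libraries and not between genes. Differences were tested with limma on log2(RPM + 1) across every gene that reached 5 RPM in 4 libraries of the floxed set or in 2 of the wild-type set. Called means a p under 0.05 after Benjamini-Hochberg adjustment over those genes. The size of 1 read in the low values gave a depth of 2798000 to 5032000 reads for the floxed libraries and 1485000 to 4783000 for the wild-type libraries. A count of 3 reads, taken as the floor, corresponded to 0.596 to 2.02 RPM. Every library had 11 or 12 of the 12 germ cell markers at 5 RPM or more. Markers of gonadal somatic and mesenchymal cells summed to 9.47 to 258 RPM in the CKO-labelled libraries and to 12.7 to 74.0 RPM in the control libraries. Pre-granulosa markers summed to 7.15 to 44.7 RPM in CKO-labelled and 1.18 to 8.75 RPM in control libraries, and germ cell markers to 3618 to 4128 RPM in CKO-labelled and 4059 to 4411 RPM in control libraries. Of 11 germ cell markers tested, 1 was called lower in CKO-labelled cells, as were 0.501% of all genes. An unadjusted p under 0.05 was reached by 5 that were lower and 1 that was higher, with no share of all genes given beside it. The part of the pre-granulosa and germ cell markers in the results between these groups was not tested. Prdm1 itself read 76.6 to 89.4 RPM in the CKO-labelled libraries and 50.7 to 73.0 RPM in the control libraries. A 3′ read can lie outside the deleted part, so that level does not check the labels. CKO-labelled 4 and control 1 correlated least with the rest of their groups (mean r of 0.964 and 0.965).

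Before the levels, the sequences just upstream of some of the light subunit genes and of Slc3a2 are shown, since Slc7a11, Slc7a7 and Slc3a2 all fell in E13.5 females against E11.5. RefSeq promoter windows (GRCm38.p6) were found for 6 of the 9 genes. None was found for Slc7a2, Slc7a3 or Slc7a5, so no motif was searched for in those genes. Each line gives the 250 bases before an annotated start site, 5′ to 3′ on the gene's strand, and capitals mark the ATF4 core, searched as TGATGNAA on both strands. The windows are chr3:50443614-50443863 (minus strand, the cystine transporter gene Slc7a11), chr14:54417703-54417952 (minus strand, 1 of 5 windows of Slc7a7) and chr19:8713898-8714147 (minus strand, Slc3a2).
Slc7a11: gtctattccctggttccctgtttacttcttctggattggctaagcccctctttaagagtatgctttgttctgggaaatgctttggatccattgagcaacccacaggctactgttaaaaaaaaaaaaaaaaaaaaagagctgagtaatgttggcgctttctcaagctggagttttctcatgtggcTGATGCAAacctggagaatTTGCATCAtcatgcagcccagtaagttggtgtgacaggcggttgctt
Slc7a7: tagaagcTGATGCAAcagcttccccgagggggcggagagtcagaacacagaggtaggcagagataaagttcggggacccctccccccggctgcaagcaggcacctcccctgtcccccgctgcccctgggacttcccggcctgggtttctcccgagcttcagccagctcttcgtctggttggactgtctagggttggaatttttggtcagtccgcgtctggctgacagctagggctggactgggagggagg
Slc3a2: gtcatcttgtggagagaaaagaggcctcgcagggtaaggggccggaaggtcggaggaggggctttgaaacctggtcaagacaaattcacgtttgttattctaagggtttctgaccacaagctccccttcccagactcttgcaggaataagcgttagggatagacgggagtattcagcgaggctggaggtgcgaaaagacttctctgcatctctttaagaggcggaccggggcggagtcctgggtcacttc
The Slc7a11 window held 2 matches in opposite orientation, which begin 66 and 47 bases before the start site. The Slc7a7 window held 1 match, 243 bases before the start site, and a second Slc7a7 window, chr14:54417945-54418194, held 1 match 141 bases before its own start site. The Slc3a2 window held none. Among all 32851 promoter windows of this length, 3.45% had a match, as did 3 of the 12 windows of these genes. The PRDM1 core AGTGAAAG was in 1.09% of all windows and the MYC E-box CACGTG in 6.02%. Both were in 0 of the 12 windows of these genes, which include none for Slc7a3. The NRF2 core TGACNNNGC was in 10.2% of all windows and in 2 of these 12, 1 window of Slc7a1 and 1 of Slc7a6. No window of these genes held 2 of the motifs. A match is a stretch of letters and not a site of binding.

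Of the cationic amino acid transporters, Slc7a3 is the gene whose values chose the set. It lies on chromosome X, at chrX:101079146-101090452. In CKO-labelled libraries 1 to 4 it read 84.3, 68.8, 68.9 and 66.1 RPM, against 16.8, 9.95, 16 and 8.71 RPM in control libraries 1 to 4. Every CKO-labelled library stood above every control library, as 8.19% of all tested genes did in either direction, and CKO-labelled 1 stood above the other 3. The means were 72.0 ± 8.29 RPM in CKO-labelled and 12.9 ± 4.11 RPM in control cells (SD, n = 4 each), a ratio of 5.60. On the log2(RPM + 1) scale the difference was 2.44 ± 0.20 (SE). These values rest on 185 to 363 reads in a CKO-labelled library and 37 to 73 reads in a control library. In sorted bulk cells, fewer cells of a type and less RNA per cell cannot be told apart.

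The gonadal somatic and mesenchymal markers summed to 103, 18.5, 9.47 and 258 RPM in CKO-labelled libraries 1 to 4, beside these Slc7a3 levels. CKO-labelled 1, with the highest Slc7a3 level, had the second highest marker sum, and CKO-labelled 4, with the lowest Slc7a3 level, had the highest. With the summed marker level as a covariate the log2 difference was 2.48, and without CKO-labelled 4 and control 1 it was 2.62. Both refits reuse the values that chose the set and are a description. The part of those cells in the Slc7a3 level was not tested. The RefSeq annotation places Slc7a3 over part of Snx12, a sorting nexin gene on the same strand. Snx12 averaged 54.9 ± 3.04 RPM in CKO-labelled and 51.8 ± 4.80 RPM in control cells (log2 difference 0.08 ± 0.12, limma, Benjamini-Hochberg adjusted p = 0.852).

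In wild-type cells Slc7a3 read 31.6 and 22.7 RPM in the E10.5 libraries, 11.4 and 13.7 RPM in those of E11.5, 0.418 and 0.274 RPM in E13.5 females and 7.35 and 7.04 RPM in E13.5 males. The order of the groups, from high to low, was E10.5, E11.5, E13.5 male and E13.5 female, and no neighbouring groups overlapped. Over all genes tested, groups did not overlap for 46.2% between E11.5 and E10.5, 66.2% between E13.5 males and E11.5, 74.9% between E13.5 females and E11.5 and 71.1% between E13.5 females and males. The difference of E11.5 from E10.5 was -1.04 ± 0.37 on the log2 scale and did not pass the test (limma, adjusted p = 0.107). That of E13.5 males from E11.5 was -0.72 ± 0.37 and did not pass either (limma, adjusted p = 0.131). The E11.5 difference passed under 3 of the 15 alternative settings and the male difference under 1 of 15.

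The female value at E13.5 rests on 2 reads and 1 read in the libraries. Pooled over the libraries, 3 reads in E13.5 females against 65 reads at E11.5 gave a ratio of 0.0274, with a 95% Clopper-Pearson interval of 0.00550 to 0.0836 that covers counting error only. Against the 42 reads of E13.5 males the ratio was 0.0494, with an interval of 0.00980 to 0.155. These values chose the set, so the ratios and intervals are a description and not a test. Reads of a library are also not replicates. On the log2(RPM + 1) scale, which understates changes of genes this low, E13.5 females differed by -3.33 from E11.5 and by -2.61 from E13.5 males. With a pseudocount of 0.1 in place of 1 these differences were -4.84 and -4.05, and with 10 they were -1.12 and -0.73. Snx12, which overlaps the gene, averaged 83.2 ± 2.60 RPM in E13.5 females and 84.1 ± 12.8 RPM in E13.5 males (SD, n = 2 each), a log2 difference of -0.01 (limma, adjusted p = 0.979).

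**Figure D1:**
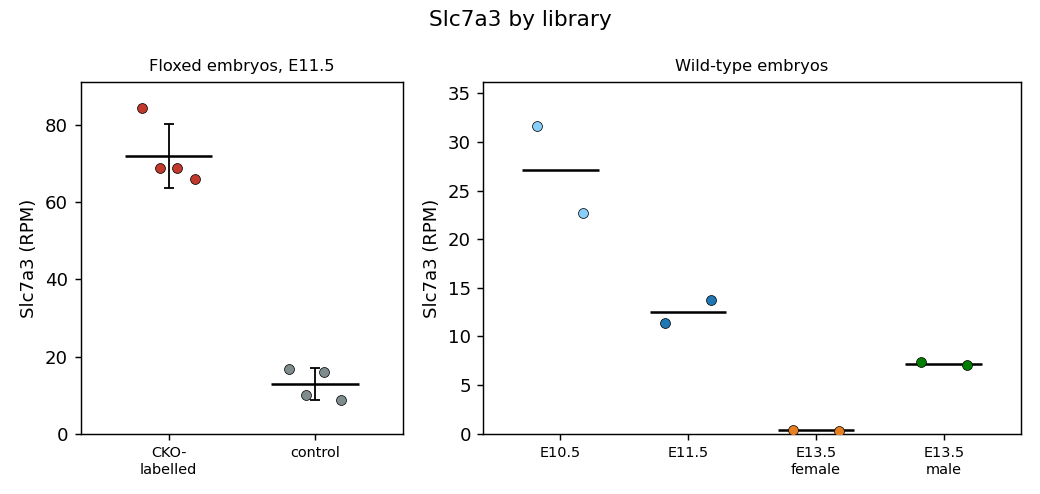
Slc7a3 in RPM (linear axes from 0, a scale for each panel) in each library, with CKO-labelled and control cells in the left panel and the wild-type groups in the right. Points are libraries, horizontal lines are group means and bars (left panel) are SDs of 4 libraries. The CKO-labelled libraries lie between 66.1 and 84.3 RPM and the control libraries between 8.71 and 16.8 RPM, and the E13.5 female libraries lie at 0.418 and 0.274 RPM.

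Slc7a1, the most widely expressed of the cationic transporters in mammals, rose by E13.5 in both sexes. It read 2.71 and 1.28 RPM in the E10.5 libraries, 2.02 and 1.99 RPM in those of E11.5, 7.53 and 5.48 RPM in E13.5 females and 6.01 and 9.51 RPM in E13.5 males. All 4 libraries of E13.5 stood above all 4 earlier libraries, and the sexes overlapped. Slc7a1 passed the filter only through the E13.5 libraries, where it is high, so its entry into the test was tied to a rise. Against E11.5 the log2 difference was 1.31 ± 0.45 in females (limma, adjusted p = 0.0170) and 1.51 ± 0.45 in males (limma, adjusted p = 0.00890). The sexes differed by -0.21 ± 0.45, female minus male (limma, adjusted p = 0.753). The female call was lost without either female library (adjusted p of 0.160 and 0.0533), with no filter (0.0553) and with quantile scaling (0.0904), and the male call without male library 2 (adjusted p = 0.120).

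In the floxed cells Slc7a1 was too low for the filter, which asked for 5 RPM in 4 libraries. CKO-labelled libraries 1 to 4 had 2.32, 1.59, 2.58 and 4.65 RPM and control libraries 1 to 4 had 1.77, 3.38, 1.53 and 0.471 RPM, so the groups overlapped. Slc7a1 was thus low in the floxed as in the wild-type libraries of E11.5.

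Slc7a2, a cationic transporter known in mouse for its activity in liver and macrophages, passed the filter in no table. It read 3.02, 0.199, 1.44 and 6.08 RPM in CKO-labelled libraries 1 to 4, against 2.06, 0.398, 1.75 and 1.65 RPM in control libraries 1 to 4. The groups overlapped, and the 2 highest libraries, CKO-labelled 4 and 1, also held the highest gonadal somatic marker sums, 258 and 103 RPM. The part of those cells in the Slc7a2 level was not tested. In wild-type cells it had 4.06 and 4.16 RPM in the E10.5 libraries, 2.02 and 3.13 RPM in those of E11.5, 5.85 and 4.39 RPM in E13.5 females and 0.334 and 2.82 RPM in E13.5 males.

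Slc3a2, the heavy subunit gene, did not pass the test between the floxed groups and fell by E13.5. In CKO-labelled libraries 1 to 4 it read 239, 259, 211 and 204 RPM, against 220.1, 257, 233 and 238 RPM in control libraries 1 to 4. The groups overlapped over most of their range, and the log2 difference was -0.06 ± 0.10 (limma, adjusted p = 0.879). In wild-type cells it read 249 and 237 RPM in the E10.5 libraries, 251 and 229.8 RPM in those of E11.5, 114 and 103 RPM in E13.5 females and 142 and 169 RPM in E13.5 males. The libraries of E10.5 and E11.5 overlapped, the male libraries lay below both, and the female libraries lay below the male.

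Against E11.5, Slc3a2 fell in both sexes, with a log2 difference of -1.14 ± 0.12 in females (limma, adjusted p = 6.40e-09) and of -0.63 ± 0.12 in males (limma, adjusted p = 0.000106). The level in females was below that in males by a tested log2 difference of -0.52 ± 0.12 (limma, adjusted p = 0.000907). All 3 calls held under each of their 15 alternative settings. The difference of E11.5 from E10.5 was -0.02 ± 0.12 (limma, adjusted p = 0.963). Both E13.5 comparisons with E11.5 share the E11.5 libraries.

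Slc7a5, the light subunit of a transporter of leucine and other large neutral amino acids, did not pass the test between the floxed groups. CKO-labelled libraries 1 to 4 had 19.7, 33.0, 28.7 and 21.1 RPM, against 26.5, 32.2, 31.5 and 50.4 RPM in control libraries 1 to 4. The groups overlapped, with control 4 highest, and the log2 difference was -0.43 ± 0.21 (limma, adjusted p = 0.452). In wild-type cells it read 55.5 and 57.9 RPM in the E10.5 libraries, 53.2 and 68.0 RPM in those of E11.5, 25.1 and 29.3 RPM in E13.5 females and 40.1 and 45.8 RPM in E13.5 males. Female libraries were lowest, male libraries came next, and the 2 earlier stages overlapped.

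Slc7a5 fell by 1.12 ± 0.19 in females against E11.5 on the log2 scale (limma, adjusted p = 1.37e-05), a call that held under all 15 alternative settings. It fell by 0.48 ± 0.19 in males (limma, adjusted p = 0.0408), a call kept under only 8 of 15, with adjusted p between 0.0128 and 0.289. The male call was lost without E11.5 library 2 and without either male library. The tested difference of females from males was -0.64 ± 0.19 (limma, adjusted p = 0.00729). That call was lost without female library 1 (adjusted p = 0.0939) or male library 2 (adjusted p = 0.0767). From E10.5, the E11.5 libraries differed by 0.08 ± 0.19 (limma, adjusted p = 0.852).

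Slc7a6, a light subunit that exchanges cationic for neutral amino acids, was the member that fell in males and not detectably in females. In wild-type cells it read 78.5 and 58.3 RPM in the E10.5 libraries, 61.3 and 63.8 RPM in those of E11.5, 53.3 and 63.9 RPM in E13.5 females and 38.7 and 38.7 RPM in E13.5 males. Both male libraries lay below all others, and the female libraries overlapped those of E11.5. It fell by 0.68 ± 0.17 in males against E11.5 (limma, adjusted p = 0.00272), while the female difference was -0.10 ± 0.17 (limma, adjusted p = 0.660). The sexes differed in a direct test by 0.58 ± 0.17, female minus male (limma, adjusted p = 0.00920), a call lost without female library 2 (log2 difference 0.45, adjusted p = 0.145) or without the variance trend (adjusted p = 0.0567).

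In the floxed cells Slc7a6 had 49.5, 51.1, 41.9 and 58.6 RPM in CKO-labelled libraries 1 to 4, against 82.4, 58.5, 63.9 and 65.9 RPM in control libraries 1 to 4. Only CKO-labelled 4 reached the lowest control library. The log2 difference of -0.42 ± 0.14 did not pass (limma, adjusted p = 0.180, unadjusted p = 0.00952), and the adjusted p ran between 0.0985 and 0.408 over 20 alternative settings.

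Slc7a7, which exchanges the same classes of amino acids and exports arginine in epithelia and macrophages, had the lowest log2 difference of the tested SLC3A2 light subunits at E13.5 against E11.5, in both sexes. It read 21.7 and 30.1 RPM in the E10.5 libraries, 36.4 and 29.3 RPM in those of E11.5, 8.78 and 5.76 RPM in E13.5 females and 14.4 and 14.4 RPM in E13.5 males. Female libraries were lowest and male libraries lay between them and the overlapping libraries of E10.5 and E11.5. Against E11.5 it fell in both sexes, with a log2 difference of -2.05 ± 0.28 in females (limma, adjusted p = 1.13e-06) and of -1.13 ± 0.28 in males (limma, adjusted p = 0.00243). The tested difference of females from males was -0.92 ± 0.28 (limma, adjusted p = 0.0116), a call lost without female library 2 (-0.65, adjusted p = 0.165) or male library 2 (-0.92, adjusted p = 0.0535).

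In the floxed cells Slc7a7 had 28.1, 36.0, 35.6 and 28.6 RPM in CKO-labelled libraries 1 to 4, against 23.5, 28.8, 23.0 and 20.7 RPM in control libraries 1 to 4. Control 2 reached above the 2 lowest CKO-labelled libraries, and the log2 difference of 0.40 ± 0.15 did not pass (limma, adjusted p = 0.282). Slc7a7, at chr14:54369442-54420068, overlaps Oxa1l, a mitochondrial insertase gene on the opposite strand, and the use of strand in counting is not given in the sources used here. Oxa1l moved the other way in females, with a log2 difference of 0.65 ± 0.14 from E11.5 (limma, adjusted p = 0.000339) and 0.71 ± 0.14 from males (limma, adjusted p = 0.000220). Markers of macrophages, in which Slc7a7 is active, summed to at most 2.85 RPM over 8 genes in every wild-type library, and none reached 5 RPM. In the floxed libraries they summed to 0.994 to 9.99 RPM in CKO-labelled and 0.294 to 5.89 RPM in control cells, again with none at 5 RPM. The part of macrophages in the Slc7a7 level was not tested.

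Slc7a11, the light subunit of the cystine and glutamate exchanger that feeds glutathione synthesis, passed the filter in the wild-type table. It read 9.03 and 6.08 RPM in the E10.5 libraries, 10.8 and 5.98 RPM in those of E11.5, 3.76 and 2.19 RPM in E13.5 females and 4.68 and 4.58 RPM in E13.5 males. All 4 libraries of E13.5 lay below the earlier libraries, with the female libraries lowest. No E13.5 library reached the 5 RPM of the filter, so Slc7a11 entered the test only through the earlier stages, where it is high. It fell by 1.22 ± 0.42 in females against E11.5 (limma, adjusted p = 0.0171), a call lost without E11.5 library 1 (adjusted p = 0.160) or female library 2 (adjusted p = 0.175) and with no filter (adjusted p = 0.0646). The male difference from E11.5 was -0.69 ± 0.42 (limma, adjusted p = 0.203), and females differed from males by -0.53 ± 0.42 (limma, adjusted p = 0.344).

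In the floxed cells Slc7a11 had 0.929, 0.994, 1.72 and 1.79 RPM in CKO-labelled libraries 1 to 4, against 0.294, 2.59, 1.31 and 1.18 RPM in control libraries 1 to 4, levels near the floor of 3 reads. Its mean was 1.34 RPM in the floxed control cells and 8.38 RPM in wild-type E11.5 cells, values that come from separate tables and differ in strain, so no test was made. Slc7a8, a light subunit with preferences close to those of SLC7A5, ranged between 0 and 1.19 RPM in the floxed libraries and between 0 and 4.16 RPM in the wild-type libraries. It passed the filter in neither table. The highest Slc7a8 value was in E10.5 library 2.

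**Figure D2:**
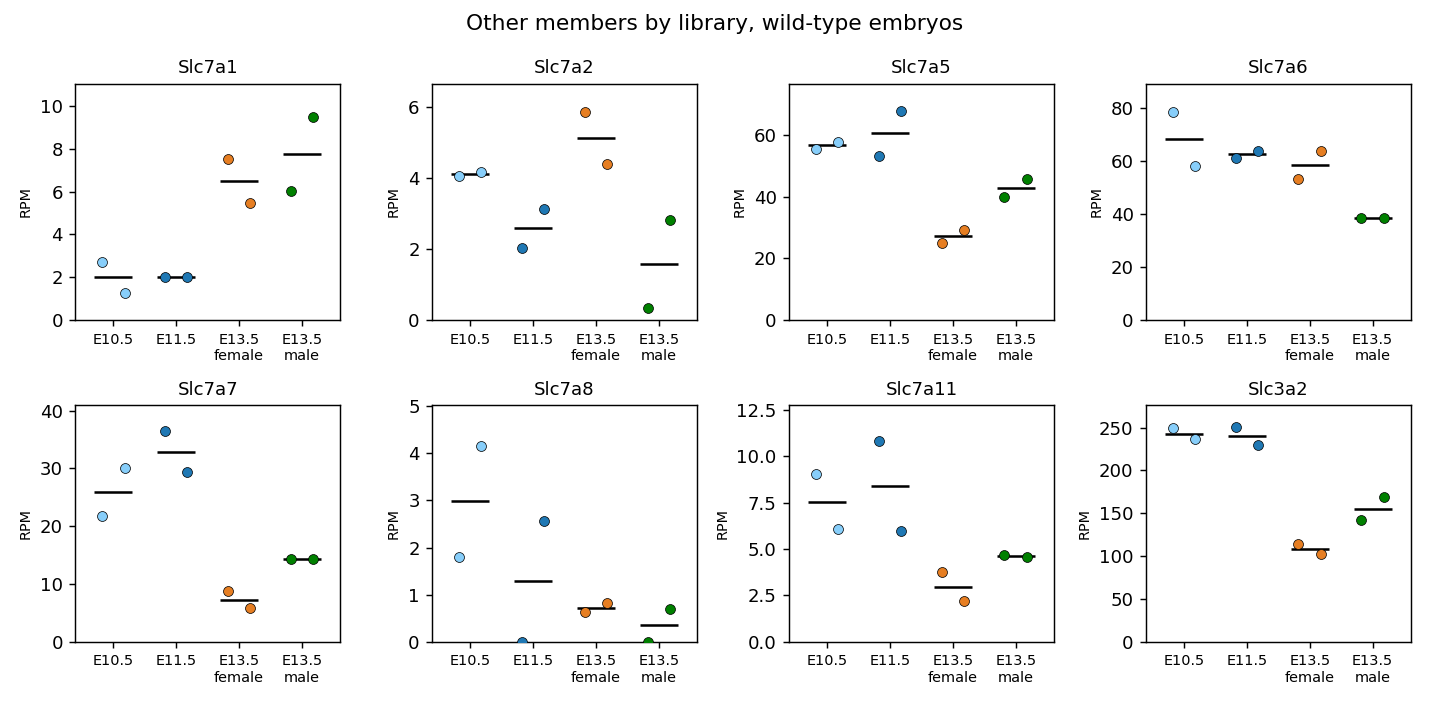
The other 8 genes in RPM (linear axes from 0, a scale for each gene) in each wild-type library, with group means as lines. Slc3a2, Slc7a5 and Slc7a7 are lowest in E13.5 females, Slc7a6 is lowest in E13.5 males at 38.7 RPM, and Slc7a1 is higher at E13.5 than before.

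**Figure D3:**
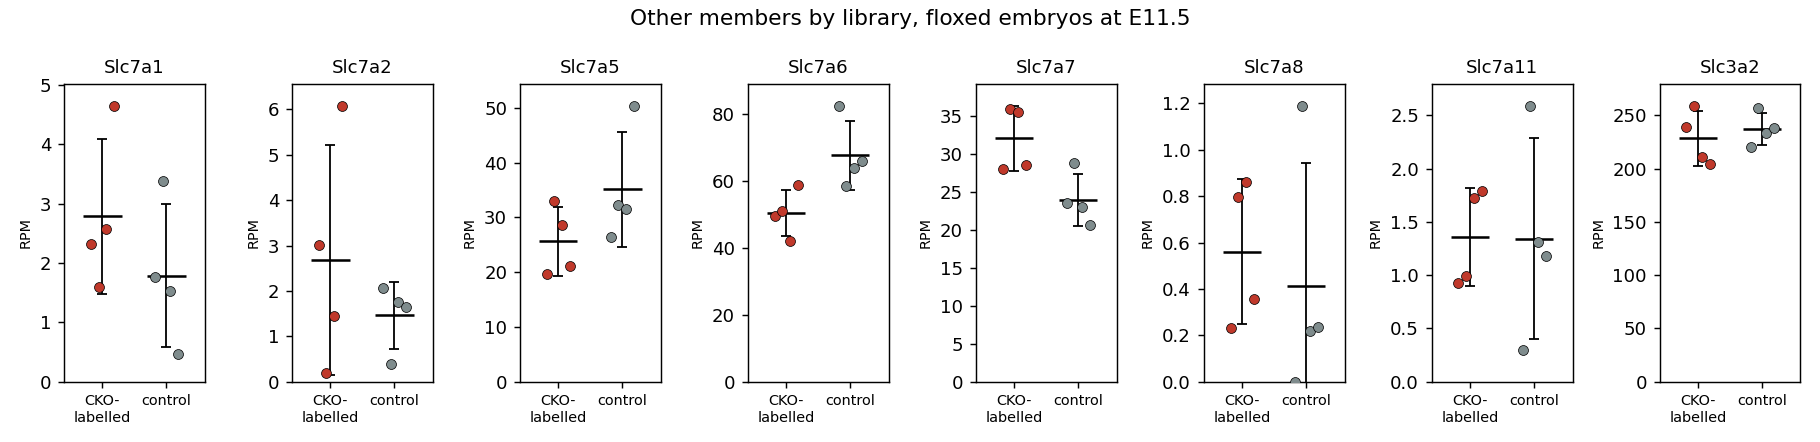
The other 8 genes in RPM (linear axes from 0, a scale for each gene) in each CKO-labelled and control library at E11.5. Lines are means and bars are SDs of 4 libraries, cut at 0. The groups overlap for each of the 8 genes, with Slc7a6 and Slc7a7 overlapping least.

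Read across the set, 5 of the 9 genes passed the filter in the floxed table and 7 in the wild-type table. Between CKO-labelled and control cells 2.43% of all 9384 genes tested were called (181 or 1.93% higher and 47 or 0.501% lower), and 0 of the 4 tested genes other than Slc7a3 were called by limma. At an unadjusted p under 0.05 there was 1 higher (Slc7a7) and 1 lower (Slc7a6). The share of all genes below that unadjusted p is not given here, and the 2.43% is no background for it. The median log2 difference of these 4 genes was -0.24, beside -0.01 over all genes. Between E11.5 and E10.5, where 4.28% of 10749 genes were called (2.31% higher and 1.97% lower), 0 of 7 were called by limma, and Slc7a3 alone was below an unadjusted p of 0.05.

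Between E13.5 males and E11.5, where 38.2% of all genes were called (22.3% higher and 15.9% lower), 4 of 7 fell (Slc7a5, Slc7a6, Slc7a7 and Slc3a2) and 1 rose (Slc7a1). The median was -0.68, beside 0.11 over all genes. Between E13.5 females and E11.5, where 51.2% were called (31.2% higher and 20.0% lower), 4 of the 6 tested genes fell (Slc7a5, Slc7a7, Slc7a11 and Slc3a2) and 1 rose (Slc7a1). The median was -1.13, beside 0.13 over all genes, and under quantile scaling the all-gene median was -0.02. Of all genes called there, 3354 were higher and 2148 lower, or 2731 and 2811 with quantile scaling. Between E13.5 females and males, where 37.6% were called (21.2% higher and 16.4% lower), 3 of 6 were lower in females (Slc7a5, Slc7a7 and Slc3a2) and 1 was higher (Slc7a6), with a median of -0.52 beside 0.05. These counts and medians against E11.5 include Slc7a1 and Slc7a11, which passed the filter only through the stages where they are high, and they are given as a description.

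Germ cell markers summed to 6092 to 6266 RPM in E13.5 females, 9339 to 9773 RPM in E13.5 males and 5658 to 5706 RPM at E11.5. Much of the male excess came from Dppa3, which averaged 6283 RPM in E13.5 males, 2478 RPM in E13.5 females and 3186 RPM at E11.5. Of 12 germ cell markers tested, 6 were called higher and 5 lower in E13.5 females than in E13.5 males. Against E11.5, 4 were called higher and 5 lower in E13.5 males, and 3 higher and 7 lower in E13.5 females. Of all genes, 37.6% were called between the sexes, and 38.2% in males and 51.2% in females against E11.5. Endothelial markers summed to 115 to 123 RPM in E13.5 females, 58.5 to 60.1 RPM in E13.5 males and 118 to 121 RPM at E11.5, most of it Pecam1, which germ cells also express. Erythroid markers summed to 6.26 to 16.8 RPM at E11.5 and 230.5 to 248 RPM at E10.5, and to 37.4 to 42.8 RPM in E13.5 females and 8.10 to 9.69 RPM in E13.5 males. Of 6 erythroid markers tested, 4 were called higher in E13.5 females than at E11.5 and 3 higher than in E13.5 males. Mesonephric epithelium markers summed to 10.7 to 14.2 RPM in E13.5 females, 78.8 to 81.3 RPM in E13.5 males and 41.8 to 42.7 RPM at E11.5. In each male library only 1 of the 6 markers reached 5 RPM. Of 3 markers tested against E11.5, 1 was called higher and 2 lower in males, and 3 lower in females. The part of these markers in the values above was not tested.

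**Figure D4:**
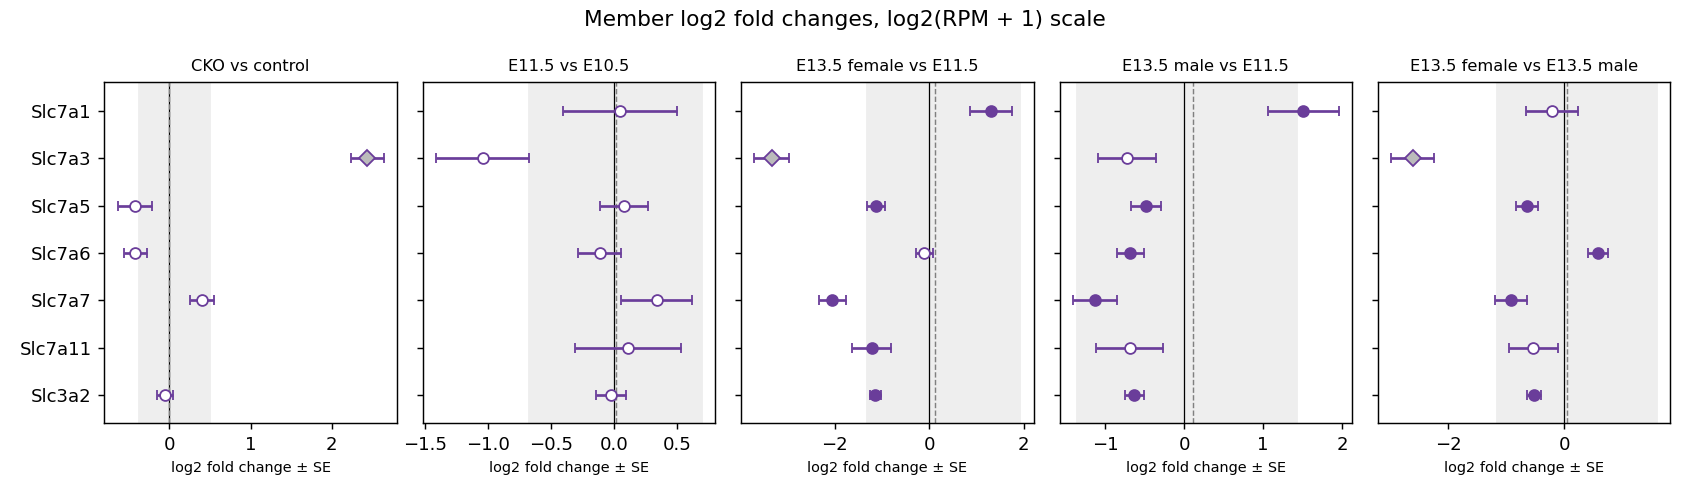
Log2 differences (log2(RPM + 1) scale, ± SE, a scale for each panel) of the 7 genes that passed a filter, in the 5 comparisons. Filled circles passed the test, open circles did not, and grey diamonds mark Slc7a3 where it is not tested; the shaded band holds the middle 90% of all genes and the dashed line is their median. Slc7a1 lies to the right of 0 and Slc7a7 and Slc3a2 to the left in both comparisons of E13.5 with E11.5.

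The other genes of the family were near 0 with 1 exception. Slc7a4, Slc7a10, Slc7a12, Slc7a13, Slc7a14, Slc7a15 and Slc3a1 averaged at most 2.20 RPM in any group. The exception was Slc7a9, the light subunit of the cystine and cationic amino acid transporter of kidney and gut, whose known partner is SLC3A1. It read 28.0 and 20.8 RPM in the E10.5 libraries, 24.9 and 27.3 RPM in those of E11.5, 14.2 and 12.6 RPM in E13.5 females and 7.01 and 4.23 RPM in E13.5 males. The male libraries lay below the female libraries, and both below the earlier stages. Against E11.5 Slc7a9 fell in both sexes, with a log2 difference of -0.91 ± 0.30 in females (limma, adjusted p = 0.0128) and of -2.07 ± 0.30 in males (limma, adjusted p = 3.41e-06). Females were above males by a tested 1.15 ± 0.30 (limma, adjusted p = 0.00320). In CKO-labelled cells it averaged 22.7 ± 3.10 RPM, against 26.7 ± 6.60 RPM in control cells (limma, adjusted p = 0.764).

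Among the 5 genes whose pattern was most like that of Slc7a3 were Dtx3l, Prr13, Lgr4 and Tpd52. Likeness was Pearson's r of log2(RPM + 1) over the 16 libraries, each table centred on its own mean, among 9303 genes, and the libraries of a group share their condition. The r was 0.94 for Dtx3l, 0.92 for Prr13, 0.92 for Lgr4 and 0.91 for Tpd52. Dtx3l averaged 17.9 RPM in CKO-labelled and 8.03 RPM in control cells, and 3.77 RPM in E13.5 females and 8.38 RPM in E13.5 males. Prr13 averaged 27.4 RPM in CKO-labelled and 13 RPM in control cells, and 4.38 RPM in E13.5 females and 13.7 RPM in E13.5 males. Of the family itself, Slc7a7 had an r of 0.79 to Slc7a3, Slc3a2 0.67, Slc7a5 0.29 and Slc7a6 -0.14. Each r uses the Slc7a3 values that chose the set and joins both tables, so it is a description. Slc3a2 had its r of 0.67 with a log2 difference of only -0.06 between the floxed groups.

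Genes that work beside these transporters were read in 5 lists, with log2 differences ± SE in brackets. Their counts stand beside the shares of all genes called, which were 2.43% between CKO-labelled and control cells, 4.28% between E11.5 and E10.5, 51.2% and 38.2% for E13.5 females and males against E11.5, and 37.6% between the sexes. Those shares are no background for counts at an unadjusted p, here and in the lists below. Of 11 other amino acid transporter genes tested between CKO-labelled and control cells, 0 were called by limma, and 0 were below an unadjusted p of 0.05. Of 19 tested between E13.5 females and E11.5, 5 rose and 9 fell (median -0.42), where 31.2% of all genes rose and 20.0% fell. Between E13.5 males and E11.5, 2 rose and 7 fell (median -0.37), where 22.3% of all genes rose and 15.9% fell. Slc6a6, a taurine transporter, was at 6.88 ± 0.0328 RPM in E13.5 females, against 62.8 ± 5.00 RPM at E11.5 (-3.02 ± 0.20, limma, adjusted p = 1.35e-12), and at 40.0 ± 3.83 RPM in E13.5 males. Slc1a5, a glutamine and neutral amino acid exchanger, was at 6.67 ± 0.263 RPM in E13.5 females, against 27.6 ± 1.96 RPM at E11.5 (-1.90 ± 0.25, limma, adjusted p = 6.43e-07).

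The sexes differed in several of these other transporters, with 7 higher and 5 lower in females of 19 tested (median 0.23). Slc38a4, a transporter of neutral and cationic amino acids, was at 69.3 ± 2.79 RPM in E13.5 females, against 13.2 ± 0.718 RPM in E13.5 males (2.31 ± 0.16, limma, adjusted p = 4.49e-12). Slc38a2, a neutral amino acid transporter induced by amino acid lack, was at 27.5 ± 3.73 RPM in E13.5 females, against 125 ± 1.28 RPM in E13.5 males (-2.15 ± 0.16, limma, adjusted p = 1.14e-11). The pair thus ran in opposite directions. Slc1a4, a neutral amino acid transporter, was at 36.2 ± 0.143 RPM in E13.5 males, against 5.22 ± 2.15 RPM at E11.5 (2.62 ± 0.31, limma, adjusted p = 1.32e-07). It was the 1 gene of this list called between E11.5 and E10.5, at 5.22 ± 2.15 RPM and 11.7 ± 2.49 RPM (-1.06 ± 0.31, limma, adjusted p = 0.0480).

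Arginine and polyamine genes use what the cationic transporters carry. Of 14 tested between CKO-labelled and control cells, 0 were called by limma, with 2 higher and 2 lower at an unadjusted p under 0.05. Against E11.5, 3 rose and 6 fell of 15 in E13.5 females, and 1 rose and 7 fell in E13.5 males. Srm, spermidine synthase, was at 51.2 ± 2.03 RPM in E13.5 females, 126 ± 4.24 RPM in E13.5 males and 184 ± 27.5 RPM at E11.5, with females below males by a tested log2 difference of -1.29 ± 0.13 (limma, adjusted p = 1.14e-08). Sms, spermine synthase, ran the other way, at 141 ± 5.09 RPM in E13.5 females, against 56.9 ± 6.25 RPM in E13.5 males (1.30 ± 0.14, limma, adjusted p = 1.57e-08). Odc1, ornithine decarboxylase, was at 382 ± 15.1 RPM in E13.5 females, against 639.6 ± 38.3 RPM in E13.5 males (-0.74 ± 0.09, limma, adjusted p = 2.31e-07).

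Of the arginine and polyamine genes 1 rose and 2 fell between E11.5 and E10.5. Ckb, a creatine kinase, was at 348 ± 16 RPM at E11.5, against 249.8 ± 28.9 RPM at E10.5 (0.48 ± 0.12, limma, adjusted p = 0.0136). It then fell in both sexes, to 118 ± 12.3 RPM in E13.5 females (limma, adjusted p = 1.50e-11) and 130.2 ± 2.88 RPM in E13.5 males (limma, adjusted p = 1.04e-10). Oat, ornithine aminotransferase, was at 42.0 ± 17.6 RPM in E13.5 males, against 111 ± 24.3 RPM at E11.5 (-1.43 ± 0.19, limma, adjusted p = 5.95e-07).

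Of 27 genes by which the growth kinase complex mTORC1 senses amino acids, 1 was called between CKO-labelled and control cells. Rragd, a Rag GTPase that carries the amino acid signal to mTORC1 at the lysosome, was at 15.4 ± 1.50 RPM in CKO-labelled cells, against 2.71 ± 1.09 RPM in control cells (2.19 ± 0.24, limma, adjusted p = 0.000185). Rragd passed the filter only through the CKO-labelled libraries, where it is high. Against E11.5, 8 rose and 7 fell of 28 in E13.5 females, a share close to the 51.2% of all genes, and 4 rose and 3 fell in E13.5 males, a share below the 38.2% of all genes. Gatsl3, also called Castor1, an arginine sensor of that complex, was at 18.9 ± 3.44 RPM in E13.5 females, 31.3 ± 2.95 RPM in E13.5 males and 73.9 ± 12.2 RPM at E11.5, a fall in females (limma, adjusted p = 5.78e-09) and in males (limma, adjusted p = 1.49e-05). Sesn3, a sestrin that restrains mTORC1, rose to 79.1 ± 7.93 RPM in E13.5 females and 75.6 ± 6.38 RPM in E13.5 males, against 35.8 ± 2.71 RPM at E11.5 (limma, adjusted p of 2.09e-06 and 7.30e-06). Mtor, the kinase, was at 179.6 ± 0.520 RPM in E13.5 females, against 102 ± 1.88 RPM in E13.5 males (0.81 ± 0.12, limma, adjusted p = 4.96e-06).

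Of 16 genes of the ATF4 stress response, 1 was called between CKO-labelled and control cells. Ppp1r15a, the phosphatase subunit that reverses the stress block on translation, was at 15.1 ± 1.99 RPM in CKO-labelled cells, against 6.93 ± 1.60 RPM in control cells (1.03 ± 0.21, limma, adjusted p = 0.0155). Between E11.5 and E10.5, 0 rose and 3 fell, among them Aldh18a1, a proline synthesis enzyme, at 8.66 ± 2.99 RPM at E11.5, against 23.2 ± 0.247 RPM at E10.5 (-1.36 ± 0.30, limma, adjusted p = 0.00815). Against E11.5, 4 rose and 2 fell in E13.5 females, and 4 rose and 3 fell in E13.5 males. Trib3, a pseudokinase induced by ATF4, rose in both sexes, to 25.7 ± 1.70 RPM in females and 28.4 ± 5.18 RPM in males, against 4.78 ± 0.0889 RPM at E11.5 (limma, adjusted p of 3.99e-06 and 2.62e-06), and passed the filter only through E13.5. Asns, asparagine synthetase, was at 236 ± 3.77 RPM in E13.5 females, against 98.3 ± 5.53 RPM in E13.5 males (1.25 ± 0.11, limma, adjusted p = 3.05e-10). The called genes of this list thus moved in both directions at E13.5.

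The last list held genes of glutathione synthesis, which SLC7A11 feeds by bringing in cystine, and genes of the NRF2 response. Of 14 tested between CKO-labelled and control cells, 0 were called by limma, with 2 higher and 0 lower at an unadjusted p under 0.05. Between E11.5 and E10.5, 3 rose and 1 fell of 15. Against E11.5, 4 rose and 4 fell in E13.5 females, and 2 rose and 4 fell in E13.5 males. Gclc, the catalytic subunit of the first step of glutathione synthesis, was at 182 ± 8.24 RPM in E13.5 females, 100.5 ± 6.66 RPM in E13.5 males and 93.1 ± 6.44 RPM at E11.5, with females above males by a tested 0.86 ± 0.13 (limma, adjusted p = 4.26e-06). Me1, a cytosolic malic enzyme that makes NADPH, was at 33.6 ± 0.188 RPM in E13.5 females and 25.8 ± 4.61 RPM in E13.5 males, against 2.04 ± 1.94 RPM at E11.5 (limma, adjusted p of 1.17e-08 and 1.23e-07), and passed the filter only through E13.5. Txnrd1, thioredoxin reductase, was at 71.4 ± 13.6 RPM in E13.5 males, against 199.9 ± 4.03 RPM at E11.5 (-1.48 ± 0.13, limma, adjusted p = 2.84e-10).

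**Figure D5:**
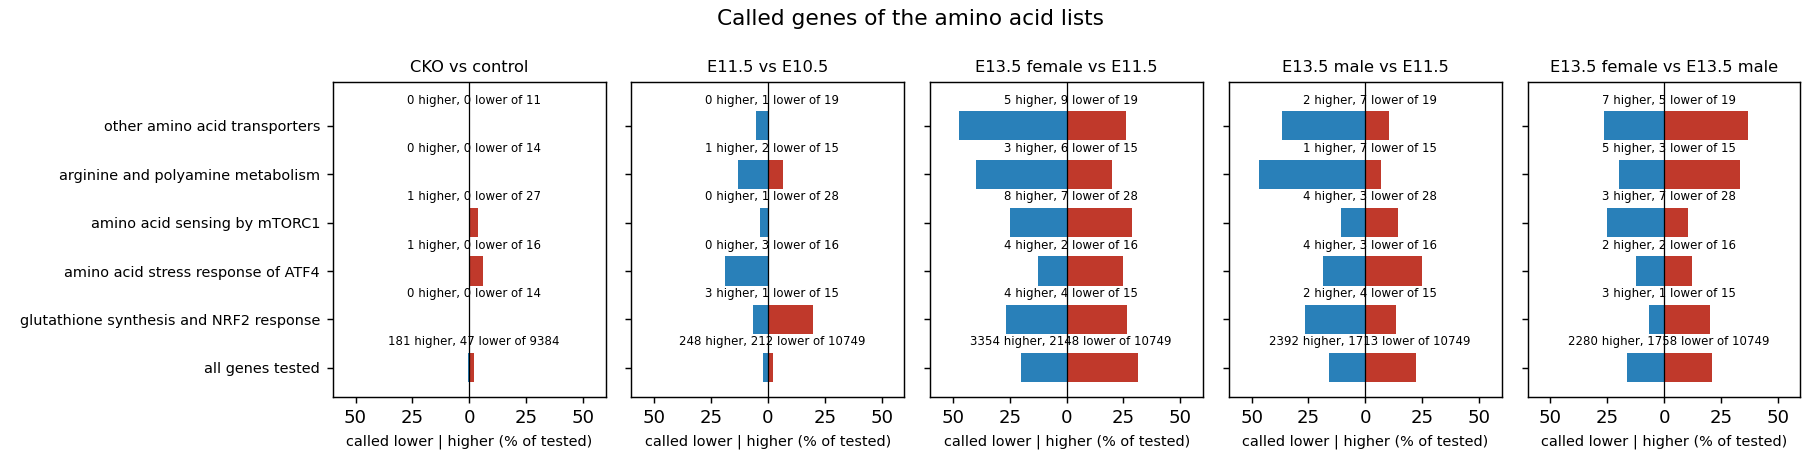
Share of the tested genes of each list that passed the test (percent of tested, lower to the left and higher to the right of 0), in the 5 comparisons, with the share over all genes at the bottom. In CKO-labelled against control cells 1 gene each is called in the mTORC1 and ATF4 lists, and in both comparisons of E13.5 with E11.5 more of the other amino acid transporters are lower than higher.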

How the data were processed

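The authors deposited RPM values (gene-assigned reads scaled to the same total in every library, not divided by length) in 2 tables of 26219 genes, 1 floxed and 1 wild-type. Per the submitters' processing notes, cutadapt 1.3, TopHat 1.4.1, Cufflinks 2.2.0 and mm10 were used, with no role stated. Per the labels' protocols, cDNA was amplified with 11 PCR cycles, for the wild-type libraries after starting with 1 ng of RNA, so intervals and floors cover counting error only. Within a library 99.61% to 99.79% of positive values were whole multiples of 1 step (within 0.05 reads). The remaining fractional values kept the data as RPM.

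Values were tested as log2(RPM + 1), pseudocount 1, with limma 3.58.1 (lmFit, eBayes with trend) in R 4.3.3, and p-values adjusted by Benjamini-Hochberg over all genes tested. Genes needed at least 5 RPM in 4 floxed libraries (3 where a library was left out) or 2 wild-type libraries, and were called at an adjusted p under 0.05. The wild-type groups shared 1 fit. Named genes are the 9 transporter genes, up to 3 called genes with the smallest p in each list and comparison (some not printed), and the 5 most like Slc7a3, of which 1 is not reported here. Slc7a9 and the overlapping Snx12 and Oxa1l are named too. Members and lists were chosen with earlier results of these data known. Alternatives covered pseudocount, filter, scaling, variance model, weights, block, groups in the fit, marker covariate and libraries left out. The method was tested on simulated data in which every gene had the same spread beyond counting error, and the outcome is not reported here. Gene positions and promoters are RefSeq's for GRCm38.p6, in which 24619 of 26219 identifiers were found. How the authors treated reads shared by similar genes is not given in the sources used here.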

Additional observations from a re-analysis of the deposited data

Results flagged for a closer look

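CKO-labelled library 1 had 84.3 RPM of Slc7a3, apart from the other 3 CKO-labelled libraries: the gap to the nearest was 0.848 of the group's range. This describes values that chose the set, with no test. Chance lists about 1 in 20 groups for such a gap.

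The E13.5 change against E11.5 differed between the sexes by a direct test (limma) for 4 of 6 genes tested, where 37.6% of all genes were called. The E11.5 libraries cancel, so this is the comparison of E13.5 females with males. The calls of Slc7a5, Slc7a6 and Slc7a7 were each kept under 13 of 15 alternative settings, and that of Slc3a2 under all 15. The log2 difference, female minus male, was -0.64 for Slc7a5, 0.58 for Slc7a6, -0.92 for Slc7a7 and -0.52 for Slc3a2.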

How the results depend on the processing

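Of 460 alternative values of tested differences of the transporter genes, 425 kept their direction and their side of the threshold, and 50 values of Slc7a3 had no test. The count of called genes between CKO-labelled and control cells was 228, against 139 with a filter at 20 RPM and 134 to 206 with a replicate left out (147 without CKO-labelled replicate 1, 134 without replicate 2). Between E11.5 and E10.5 it was 460, against 80 with no filter, 27 with no trend, 279 with array weights and 100 to 487 with a replicate left out (100 without E10.5 replicate 1, 163 without replicate 2). With a replicate left out it was 2552 to 3057 between E13.5 females and males, 3812 to 4946 between E13.5 females and E11.5 and 2884 to 3731 between E13.5 males and E11.5. A lone library was then assumed to vary like the other groups. The 10 sign changes were all in uncalled differences. With a replicate left out, the log2 difference of E11.5 from E10.5 ran between -0.30 and 0.40 for Slc7a1, -0.09 and 0.26 for Slc7a5, -0.32 and 0.10 for Slc7a6, -0.27 and 0.48 for Slc7a11 (also -0.15) and -0.08 and 0.05 for Slc3a2 (also 0.02). It was -0.01 for Slc7a11 with limma voom. Slc7a6 in females against E11.5 ran between -0.23 and 0.03 and Slc7a1 in females against males between -0.50 and 0.08. The cause was not tested. Slc7a3 in E11.5 against E10.5 passed with a pseudocount of 10 (adjusted p = 0.0105, limma), with voom (0.0372, chosen after seeing the data) and with the 2 groups alone (0.0293). With a replicate block the counts were 314, 559, 4160, 5563 and 4099 for CKO-labelled against control, E11.5 against E10.5, males and females against E11.5 and females against males, and no call of the transporter genes changed. Same-numbered floxed libraries correlated at 0.24, 0.02, 0.25 and 0.18 in their deviations, and those of unlike number at -0.23 to 0.18. Controls 1, 3 and 4 were each closest to the CKO-labelled library of their number, and control 2 to CKO-labelled 3. The labels name nothing that equal numbers share, so the main fit took no pairs, though these values do not exclude a pairing. A planned count test on reads recovered from the steps was not run, and limma voom on those reads, rounded, stood in for it. The called genes split into 1989 higher and 1950 lower for E13.5 males against E11.5 with quantile scaling, against 2392 and 1713, and into 2082 and 2109 for E13.5 females against males, against 2280 and 1758. Values of 3 reads or fewer (Slc7a3 in E13.5 females) leave their folds uncertain by at least the intervals given, which cover counting error only.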
